A study of Mus musculus with 4 samples.

Results

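The G1/S and DNA replication genes are a set of 58 mouse genes whose products prepare, carry out and monitor chromosome copying. They were taken from a fixed list of symbols, and all 58 reached 1 FPKM (fragments scaled to exon length in kilobases and to 1e+06 fragments in the library) in at least 1 library. Nearest to that limit were E2f2, Ung and Orc1, with highest levels of 1.10, 1.18 and 1.31 FPKM, and no member fell below it. They are 58 of the 12817 genes that did so, called the compared genes here, and of the 55573 gene identifiers measured. Levels came from polyA-selected, stranded RNA sequencing of primary MEFs, fibroblasts cultured from mouse embryos and not an established line. The 4 groups, with 1 library each, were Dyrk2-/- cells (KO), wild-type cells with siDyrk2, an siRNA that targets Dyrk2, wild-type cells with siNeg, an siRNA that serves as negative control, and wild-type cells for which no siRNA is given (WT). Every culture had also received 100 nM SAG, an agonist of the Hedgehog transducer Smoothened, for 24 h, so no group shows these genes without SAG. The labels do not say how the knockout allele was made, nor how many embryos each culture came from. With 1 library per group no difference below has a replicate check and no test was made.

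Cells decide to copy their genome late in G1. Cyclin E with its kinase CDK2, after cyclin D with CDK4 or CDK6, releases E2F transcription factors from the retinoblastoma protein, and E2F then switches on most of the genes described here. Origins are licensed when ORC, CDC6 and CDT1 load the MCM helicase, which CDC45, GINS and the kinase CDC7-DBF4 later activate. In fibroblasts these transcripts are abundant in cycling cultures and scarce in resting ones. In bulk RNA, a smaller share of cells near S phase and less RNA per cell cannot be told apart.

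E2F-type letters were common in the promoters of these genes. RefSeq promoter windows (GRCm38.p6), running from 250 bases before to 50 bases after each start, were found for 48 of the 58 genes, in 57 windows. Searched on both strands for TTTCCCGC, TTTGGCGC, TTTCGCGC or TTTGCCGC, 20 of the 57 windows held a match (35.1%), against 744 of all 32851 windows (2.26%) and 467 of the 11544 windows of genes with at least 1 FPKM (4.05%). In the 250 bases before the start alone the share was 21.1%, against 1.86% of all windows and 3.35% for genes with at least 1 FPKM. The stretches below show the matches before the start among genes at least 2-fold lower in KO than in WT and the MCM helicase subunits. Of these genes, Rrm2, E2f8, Tk1 and Mcm2 had no match in their windows and Mcm3 had matches only after the start. For Ccne2 and Mcm4 no window was found. Each runs 5′ to 3′ along the gene's strand, with matches in capitals. Overlapping matches merge, as in Mcm5, where a forward TTTCGCGC overlaps a reversed TTTGGCGC. Uhrf1 had a further window (chr17:56303087-56303386), which spans the annotated gene start and held no match. A further window of Mcm7 (chr5:138171217-138171516) held none either.
Mcm5 (chr8:75109326-75109397, plus strand): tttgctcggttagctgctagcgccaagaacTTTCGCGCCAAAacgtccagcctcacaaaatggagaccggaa
Mcm6 (chr1:128359715-128359845, minus strand): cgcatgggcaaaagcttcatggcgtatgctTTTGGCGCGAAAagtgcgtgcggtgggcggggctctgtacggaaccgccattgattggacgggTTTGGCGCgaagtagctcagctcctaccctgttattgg
Mcm7 (chr5:138172011-138172078, minus strand): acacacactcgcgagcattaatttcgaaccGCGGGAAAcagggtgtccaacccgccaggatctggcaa
Cdc6 (chr11:98907983-98908050, plus strand): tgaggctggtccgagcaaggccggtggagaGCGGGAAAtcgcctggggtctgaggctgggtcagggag
Uhrf1 (chr17:56304098-56304165, plus strand): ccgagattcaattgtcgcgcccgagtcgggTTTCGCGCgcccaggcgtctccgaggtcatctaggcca

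The 20 genes with a match had a median log2 ratio of KO over WT of -0.72, and the 28 without had -0.66, with ranges that overlapped. A match is a description of letters and not a binding site. The CCAAT box, which binds NF-Y, was in 57.9% of the members' windows and in 37.4% of all windows. It was in 38.0% of the windows of genes with at least 1 FPKM and in 85.2% of those of G2/M genes. The CHR-type letters TTTGAA or TTCGAA, known from promoters of mitotic genes, were in 22.8% of the members' windows, in 19.2% of all windows and in 77.8% of the 27 windows of G2/M genes. Genes with at least 1 FPKM held the CHR-type letters in 13.7% of their windows. In the 250 bases before the start alone the CHR-type share was 19.3% for the members and 17.1% for all windows. There it was 12.0% for genes with at least 1 FPKM and 40.7% for G2/M genes.

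The libraries were similar in depth, with an estimated 21.9 M fragments in KO, 21.5 M with siDyrk2, 20.0 M with siNeg and 23.9 M in WT. Dyrk2 was at 0.57 FPKM in KO, 0.81 with siDyrk2, 7.06 with siNeg and 6.59 in WT, low where the labels say it should be. Fibroblast markers were high everywhere, with Col1a1 at 2376.90 to 3275.54 FPKM, but single markers differed between libraries. Of the 11 fibroblast markers 8 were higher and 3 lower in KO than in WT, against 43.7% and 55.6% of all compared genes. Their log2 ratios on FPKM + 1 ran from -0.85 (Thy1) to 0.98 (Dcn). With siDyrk2 5 were higher and 6 lower than with siNeg, against 54.3% and 45%, from -0.49 (Pdgfra) to 0.60 (Pdgfrb). The 6 endothelial markers summed to 3.47 to 5.31 FPKM and the 6 epithelial markers to 1.29 to 1.75 FPKM. The 6 neural markers summed to 11.6 FPKM in KO, 27.4 with siDyrk2, 17.6 with siNeg and 16.7 in WT, with Tubb3 at 4.67 FPKM in KO, 18.57 with siDyrk2, 8.95 with siNeg and 7.81 in WT. Of 14 macrophage and leukocyte markers none was at 0 in any library, and their levels summed to 569 FPKM in KO, 416 with siDyrk2, 337 with siNeg and 288 in WT. Of the 13 that reached 1 FPKM, 13 were higher in KO than in WT, against 43.7% of all compared genes. At least 2-fold higher were 2 of them, against 0.57%. With siDyrk2 12 of the 13 were higher than with siNeg, against 54.3%. With siNeg 13 were higher than in WT, against 48.3%. The part of the fibroblast, neural and macrophage markers in the results below was not tested. The Y-linked gene Ddx3y was at 8.28 FPKM in KO and at no more than 0.02 in the other 3 libraries, so KO differed from the rest in Y-linked RNA as well as in genotype, and what goes with each cannot be told apart.

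The KO comparison set these genes in Dyrk2-/- cells beside wild-type cells, all SAG-treated. All 58 were lower in KO than in WT, against 55.6% of all compared genes, and 0 were higher, against 43.7%. Among the 4 libraries 57 of 58 were lowest in KO, against 32.5% of all compared genes. Their median log2 ratio on FPKM + 1 was -0.70, against -0.02 for all compared genes. By the rule of at least 2-fold on FPKM + 1, 7 of 58 were lower (12.1%), against 1.21% of all compared genes, and 0 were higher, against 0.57%. The 7 were Uhrf1, Ccne2, Rrm2, Mcm5, Cdc6, E2f8 and Tk1, and Clspn (-0.93) and Gmnn (-0.93) were the nearest outside. On FPKM alone, without a pseudocount, 25 of 58 were at least 2-fold lower, against 3.66% of all compared genes. With siNeg in place of WT as the control the count on FPKM + 1 was 21 of 58, against 1.98%, and with a pseudocount of 5 FPKM it was 2, against 0.109%. Together the 58 genes took 0.120% of all fragments in KO and 0.214% in WT, a 1.79-fold lower share (95% counting interval 1.76 to 1.81).

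The siDyrk2 comparison set siDyrk2 beside siNeg in wild-type cells, and the differences were smaller. With siDyrk2 50 of 58 genes were lower than with siNeg, 7 were higher and Ung was equal, while 45% of all compared genes were lower and 54.3% higher. Their median log2 ratio was -0.17, against 0.02 for all compared genes, and with WT as the control in place of siNeg it was -0.07, with 36 of 58 lower, against 47.3% of all compared genes. No member reached 2-fold in either direction, where 0.796% of all compared genes were at least 2-fold lower and 0.749% higher. On FPKM alone 0 members were at least 2-fold lower, against 2.12%. The 58 genes took 0.210% of fragments with siDyrk2 and 0.239% with siNeg, a 1.14-fold lower share (1.13 to 1.16). The siDyrk2 share lay just under the 0.214% of WT.

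Both controls differed in these genes as well. With siNeg 50 of 58 genes were higher than in WT, against 48.3% of all compared genes, and 8 were lower, against 51%. Their median log2 ratio was 0.13, against -0.01 for all compared genes. The counting interval of the ratio lay above 1 for 27 members, against 22.9% of all compared genes, and below 1 for 3, against 23.6%. With siNeg 0 members were at least 2-fold higher than in WT, against 0.367% of all compared genes, and 0 were at least 2-fold lower, against 0.562%. The siNeg library held the highest level of the 4 for 45 of the 58, against 24.2% of all compared genes. It is also the control of siDyrk2, so these comparisons share a library, as the KO and siNeg comparisons share WT.

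**Figure D1:**
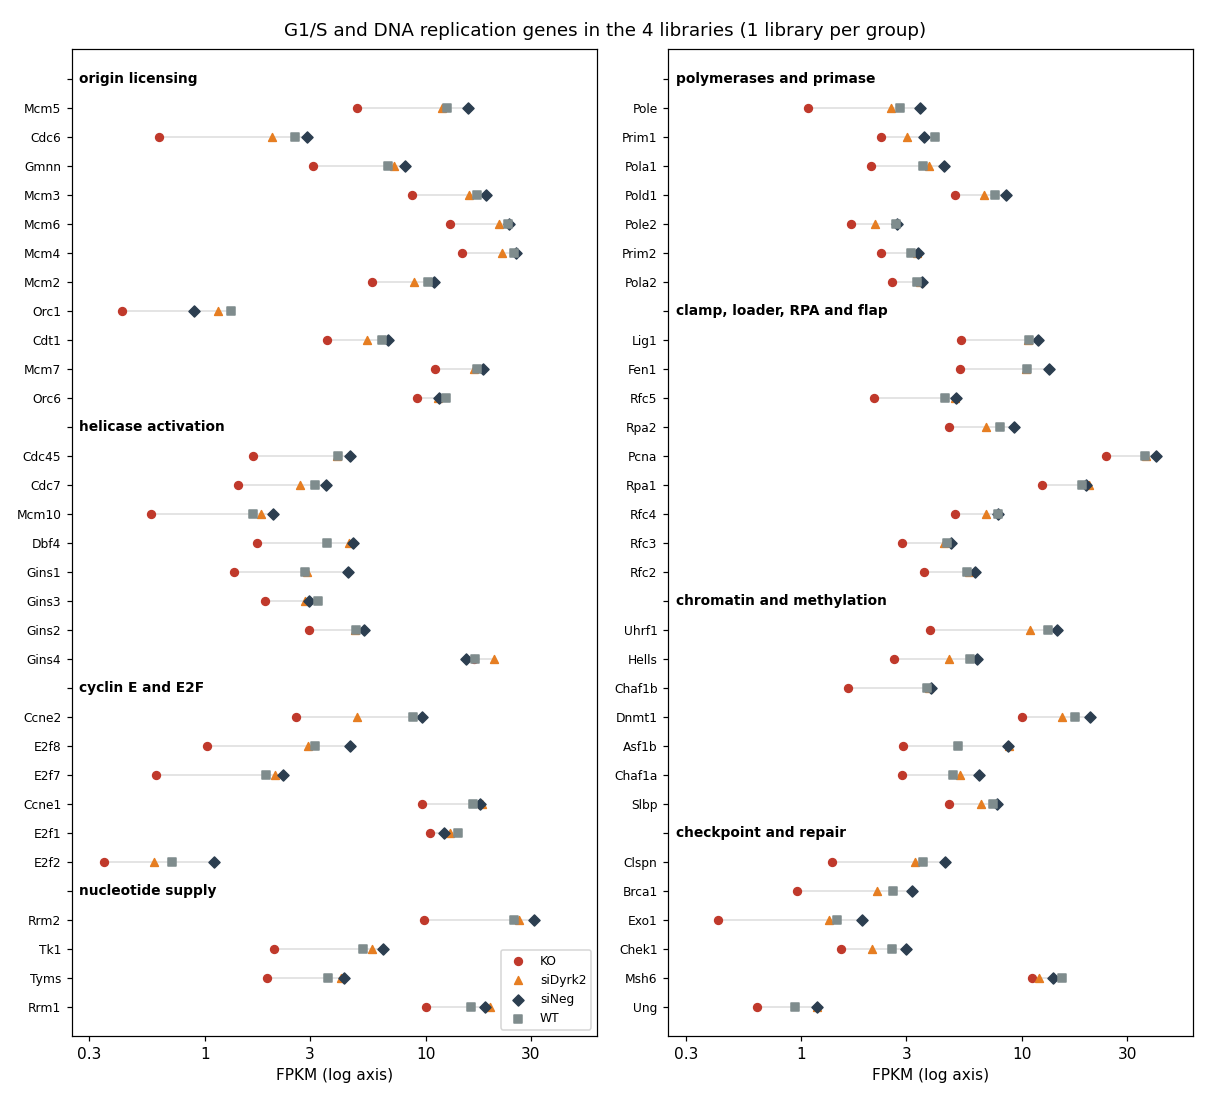
FPKM (log axis) of each of the 58 genes in the KO, siDyrk2, siNeg and WT libraries, 1 point per library, grouped by role and ordered within a role by the ratio of KO over WT. The KO point lies left of the other 3 for 57 genes, and for Gins4 it lies under the WT point, at 16.50 against 16.67 FPKM.

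The 95% counting interval of the KO over WT ratio lay below 1 for 57 of 58 members, and for siDyrk2 over siNeg for 33 of 58. Over all compared genes the same was true of 26.2% for KO over WT and 23.1% for siDyrk2 over siNeg. An interval above 1 was found for 0 members in KO over WT, against 19.1%, and for Rrm1 and Gins4 in siDyrk2 over siNeg, against 28.3%. For Rrm1 it included 1 under both other scalings. An interval that leaves out 1 sets these libraries apart and says nothing of how cultures of the same kind would differ.

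**Figure D2:**
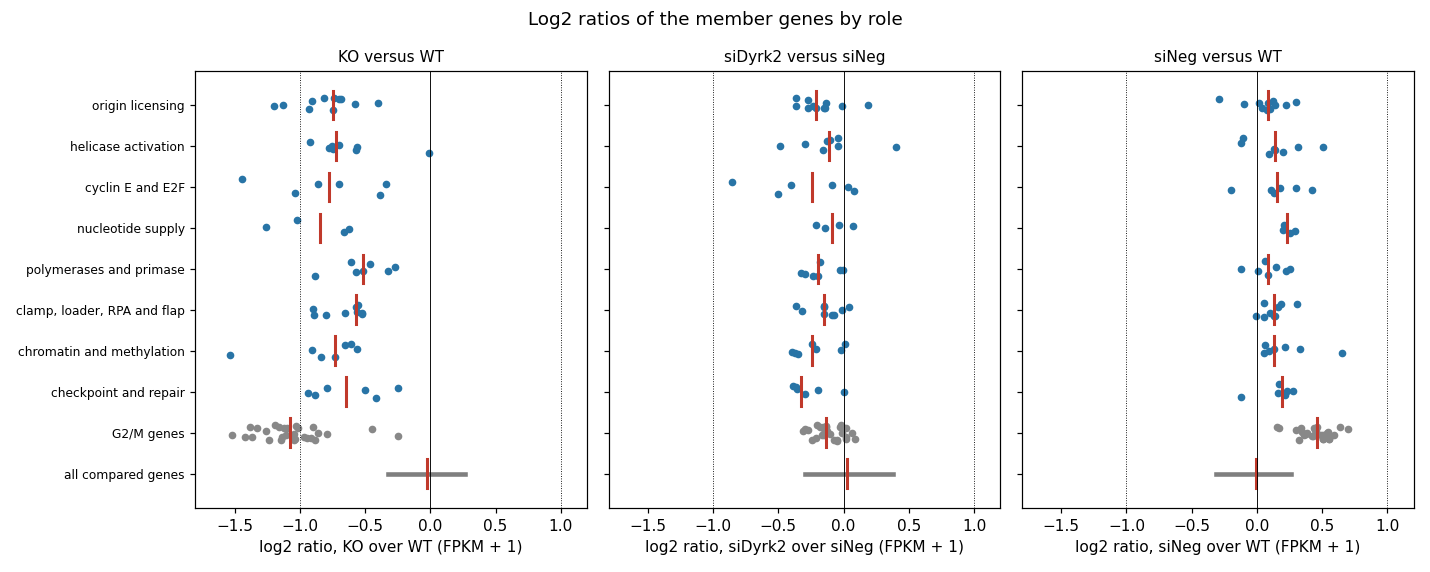
Log2 ratios on FPKM + 1 for KO over WT, siDyrk2 over siNeg and siNeg over WT, with 1 point per gene by role, and the 28 measured G2/M genes in grey. Red bars are medians, the thick grey line runs between percentiles 10 and 90 of the 12817 compared genes, and dotted lines mark 2-fold; the members' medians were -0.70, -0.17 and 0.13.

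Origin licensing genes were lower in KO in 11 of 11 cases, with a median log2 ratio of -0.74. Mcm5, a subunit of the replicative helicase, was at 4.89 FPKM in KO, 11.90 with siDyrk2, 15.61 with siNeg and 12.50 in WT, so KO lay far below the other 3. It was 2.56-fold lower in KO than in WT (2.29 to 2.86) and 1.31-fold lower with siDyrk2 than with siNeg (1.21 to 1.43). Cdc6, the ATPase that loads the helicase together with ORC and CDT1, was at 0.62 FPKM in KO, 2.02 with siDyrk2, 2.90 with siNeg and 2.55 in WT. On FPKM it had the greatest fold of all 58 in KO, 4.11-fold lower than in WT (3.17 to 5.39), on 71 and 319 estimated fragments. The other helicase subunits were 1.54-fold (Mcm7) to 1.98-fold (Mcm3) lower in KO. Geminin (Gmnn), which inhibits CDT1 outside G1, was 2.20-fold lower (1.73 to 2.81), and Cdt1 itself 1.78-fold (1.52 to 2.08). Of the origin recognition subunits, Orc6 was at 9.11 FPKM in KO, 11.36 with siDyrk2, 11.49 with siNeg and 12.36 in WT, the smallest difference of this role.

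Orc1, the ORC subunit whose protein is made anew before licensing, was the only licensing gene higher with siDyrk2 than with siNeg, within its counting interval. Its level was 0.42 FPKM in KO, 1.15 with siDyrk2, 0.89 with siNeg and 1.31 in WT. It was 3.12-fold lower in KO than in WT (2.08 to 4.77), on 32 and 109 estimated fragments. It was also the lowest member in siNeg over WT, with a log2 ratio of -0.29, and its siDyrk2 over siNeg ratio of 1.29 had a counting interval of 0.920 to 1.82.

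Genes that activate the helicase were lower in KO in 8 of 8 cases, with a median of -0.72. Cdc45, a core part of the active helicase, was at 1.66 FPKM in KO, 3.97 with siDyrk2, 4.55 with siNeg and 4.03 in WT, 2.43-fold lower in KO than in WT (1.98 to 3.01). The kinase gene Cdc7 was at 1.41 FPKM in KO, 2.69 with siDyrk2, 3.54 with siNeg and 3.14 in WT, and its activator Dbf4 was 2.07-fold lower in KO. Mcm10, a factor needed for helicase activation, was 2.89-fold lower in KO (2.29 to 3.68).

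The 4 GINS subunits, which act as a single complex, did not share a pattern at the RNA level. Gins4 was at 16.50 FPKM in KO, 20.51 with siDyrk2, 15.25 with siNeg and 16.67 in WT, and had the highest log2 ratio of the 58 in both Dyrk2 comparisons. Its KO over WT log2 ratio was -0.01, which turned to 0.01 under both other scalings and to 0.11 with siNeg as the control. With siDyrk2 it was 1.34-fold higher than with siNeg (1.18 to 1.53). The other GINS genes were lower in KO, from 1.64-fold (Gins2) to 2.09-fold (Gins1), and stood at 2.84 to 4.86 FPKM in WT. Gins2 shares 67.3% of its exon bases with the antisense gene Gse1, and whether counting used strand is not given in the sources used here.

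Cyclin E and E2F genes had a median of -0.78 in KO, with 6 of 6 lower. Ccne2, cyclin E2, was at 2.58 FPKM in KO, 4.89 with siDyrk2, 9.65 with siNeg and 8.74 in WT. Both libraries with lowered Dyrk2 lay below both controls, which was not particular to Ccne2. Across the 58 members siDyrk2 lay below both controls for 34, and KO was the lowest library for 57. Ccne2 was 3.39-fold lower in KO than in WT (2.89 to 3.99). With siDyrk2 it was 1.97-fold lower than with siNeg (1.74 to 2.25), the lowest member of the siRNA pair. Cyclin E1 (Ccne1) differed from it, at 9.67 FPKM in KO, 18.09 with siDyrk2, 17.67 with siNeg and 16.34 in WT. Its fragments gave a 1.69-fold lower level in KO (1.52 to 1.88) and no difference beyond counting error with siDyrk2. Ccne2 shares 17.4% of its exon bases with the antisense gene Ints8, which was at 6.33 FPKM in KO, 7.91 with siDyrk2, 8.00 with siNeg and 6.63 in WT.

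The atypical E2F repressors E2f7 and E2f8, themselves E2F targets, were lower in KO by more than the activator E2f1. E2f8 was at 1.02 FPKM in KO, 2.92 with siDyrk2, 4.56 with siNeg and 3.15 in WT, 3.09-fold lower in KO than in WT (2.52 to 3.83). With siDyrk2 it was 1.56-fold lower than with siNeg (1.36 to 1.80), but siNeg was itself 1.45-fold above WT, and siDyrk2 lay close to WT. E2f7 was 3.17-fold lower in KO and E2f1 1.34-fold. E2f2, the member nearest to the 1 FPKM limit, was at 0.35 FPKM in KO, 0.59 with siDyrk2, 1.10 with siNeg and 0.71 in WT. It was the only member whose log2 ratio was lower in siDyrk2 over siNeg (-0.40) than in KO over WT (-0.34), on 37 to 107 estimated fragments. This turned with the pseudocount: at 0.1 FPKM the ratios were -0.80 in siDyrk2 over siNeg and -0.85 in KO over WT. E2f2 reached 1 FPKM in siNeg only, so the filter itself favours a low siDyrk2 over siNeg ratio for it.

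Nucleotide supply genes were lower in KO in 4 of 4 cases, with a median log2 ratio of -0.84. That was the lowest of the 8 roles on FPKM + 1, while on FPKM the median was 2.21-fold lower here and 2.56-fold lower for the cyclin E and E2F genes. Rrm2, the regulated small subunit of ribonucleotide reductase, was at 9.88 FPKM in KO, 26.59 with siDyrk2, 30.94 with siNeg and 25.05 in WT, 2.54-fold lower in KO than in WT (2.31 to 2.79). Rrm1, the large catalytic subunit, was at 10.05 FPKM in KO, 19.65 with siDyrk2, 18.65 with siNeg and 15.99 in WT. It was 1.59-fold lower in KO than in WT (1.51 to 1.67) and 1.05-fold higher with siDyrk2 than with siNeg (1.01 to 1.10), a ratio whose interval ran from 0.991 to 1.08 with trimmed-mean scaling. Thymidine kinase 1 (Tk1) was at 2.06 FPKM in KO, 5.70 with siDyrk2, 6.41 with siNeg and 5.23 in WT, and Tyms, thymidylate synthase, was 1.88-fold lower in KO (1.62 to 2.20). With siDyrk2, Rrm2 was 1.16-fold lower than with siNeg (1.09 to 1.25) and Tk1 1.12-fold lower (1.01 to 1.26), and all 4 genes lay above WT.

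Polymerase and primase genes were lower in KO in 7 of 7 cases, with a median of -0.52. On FPKM their median was 1.61-fold lower, close to the 1.59-fold of the clamp genes. Pole, the catalytic subunit of the leading-strand polymerase, was at 1.07 FPKM in KO, 2.55 with siDyrk2, 3.45 with siNeg and 2.82 in WT, 2.64-fold lower in KO than in WT (2.29 to 3.05). The primase subunit gene Prim1 was at 2.30 FPKM in KO, 3.03 with siDyrk2, 3.62 with siNeg and 4.03 in WT. Pola2, an accessory subunit of polymerase alpha, was at 2.59 FPKM in KO, 3.46 with siDyrk2, 3.54 with siNeg and 3.34 in WT, 1.29-fold lower in KO (1.14 to 1.45). The other 4, Pola1, Prim2, Pole2 and Pold1, were 1.36-fold (Prim2) to 1.71-fold (Pola1) lower in KO. All 7 were lower with siDyrk2 than with siNeg, against 45% of all compared genes, with a median of -0.20. The counting interval lay below 1 for 4 of them, against 23.1%. With WT as the control, Pola1 (0.07), Pola2 (0.04) and Prim2 (0.07) were higher with siDyrk2, while Prim1, Pole, Pole2 and Pold1 were lower.

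Clamp, clamp loader, single-strand binding and flap processing genes were lower in KO in 9 of 9 cases, with a median of -0.57. The sliding clamp Pcna was the most abundant member, at 24.19 FPKM in KO, 36.62 with siDyrk2, 40.73 with siNeg and 36.33 in WT, a log2 ratio of KO over WT of -0.57. A pseudogene of it, Pcna-ps2, was at 1.64 FPKM in KO, 3.94 with siDyrk2, 4.29 with siNeg and 2.57 in WT, and reads may have been split between them. Lig1, the ligase that joins Okazaki fragments, was at 5.32 FPKM in KO, 10.64 with siDyrk2, 11.90 with siNeg and 10.77 in WT. The flap endonuclease gene Fen1 was at 5.23 FPKM in KO, 10.48 with siDyrk2, 13.31 with siNeg and 10.56 in WT. Both were just over 2-fold lower in KO on FPKM. Of the clamp loader genes Rfc2 differed least, at 3.62 FPKM in KO, 5.76 with siDyrk2, 6.12 with siNeg and 5.63 in WT, while Rfc5 was 2.09-fold lower in KO (1.78 to 2.46). The single-strand binding genes Rpa1 and Rpa2 were 1.51-fold and 1.69-fold lower in KO, and with siDyrk2 only Rpa2 had an interval below 1. Fen1 shares 78.8% of its exon bases with the antisense gene Gm10143, which was at no more than 0.05 FPKM in any library. It also shares 5.37% with the antisense gene Tmem258, which was at 27.41 FPKM in KO, 32.64 with siDyrk2, 29.98 with siNeg and 26.07 in WT, above Fen1 itself.

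Chromatin assembly and maintenance methylation genes had a median of -0.73 in KO, with 7 of 7 lower. Uhrf1, which brings the methyltransferase DNMT1 to newly copied DNA, was at 3.85 FPKM in KO, 10.94 with siDyrk2, 14.43 with siNeg and 13.08 in WT. It had the lowest log2 ratio of all 58 in KO and was 3.40-fold lower than in WT (3.02 to 3.83), and 1.32-fold lower with siDyrk2 than with siNeg (1.21 to 1.44). Dnmt1 was 1.73-fold lower in KO (1.63 to 1.84). Of the subunits of the histone chaperone CAF-1, Chaf1b was 2.26-fold lower in KO and Chaf1a 1.70-fold, and Chaf1a shares 52.5% of its exon bases with the antisense gene Ubxn6. The remodeller gene Hells was at 2.63 FPKM in KO, 4.69 with siDyrk2, 6.27 with siNeg and 5.82 in WT. Slbp, which binds the stem-loop of histone messages, was at 4.67 FPKM in KO, 6.52 with siDyrk2, 7.73 with siNeg and 7.37 in WT, 1.58-fold lower in KO.

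Asf1b, a histone chaperone, differed most between both controls. Its level was 2.91 FPKM in KO, 8.74 with siDyrk2, 8.65 with siNeg and 5.15 in WT, so both transfected libraries were high. With siNeg it was 1.68-fold above WT (1.44 to 1.96). In log2 ratio it stood at 0.65, followed by Gins1 at 0.51 and E2f8 at 0.42. The lowest in siNeg over WT were Orc1, E2f1 (-0.20) and the mismatch repair gene Msh6 (-0.12), which were also the members whose counting interval lay below 1 there.

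Checkpoint and repair genes were lower in KO in 6 of 6 cases, with a median of -0.65, and had the lowest siDyrk2 over siNeg median of the 8 roles at -0.33. Clspn, claspin, which passes the stalled-fork signal to the kinase CHK1, was at 1.38 FPKM in KO, 3.29 with siDyrk2, 4.50 with siNeg and 3.55 in WT, 2.57-fold lower in KO than in WT (2.20 to 3.01). Brca1 was at 0.96 FPKM in KO, 2.21 with siDyrk2, 3.19 with siNeg and 2.61 in WT, 2.72-fold lower in KO (2.29 to 3.24) and 1.44-fold lower with siDyrk2 than with siNeg (1.27 to 1.65). The exonuclease gene Exo1 was 3.48-fold lower in KO, on 77 and 294 estimated fragments. Ung, a uracil glycosylase, was at 0.63 FPKM in KO, 1.18 with siDyrk2, 1.18 with siNeg and 0.94 in WT, 1.49-fold lower in KO (1.12 to 2.03). Chek1, which encodes CHK1, was 1.69-fold lower in KO and Msh6 1.37-fold.

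Summed over a role, the siDyrk2 over siNeg differences ran unevenly. The checkpoint and repair genes together took 1.28-fold fewer of all fragments with siDyrk2 than with siNeg (1.21 to 1.35), and the chromatin genes 1.26-fold fewer (1.22 to 1.30). Nucleotide supply genes had an interval that included 1, with 1.02-fold fewer (0.983 to 1.05), and so did helicase activation genes, with 1.05-fold fewer (0.995 to 1.10). In KO over WT the same sums ran from 1.64-fold fewer for both the polymerase and the clamp genes to 1.94-fold fewer for the cyclin E and E2F genes. Such sums weigh abundant genes most.

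**Figure D3:**
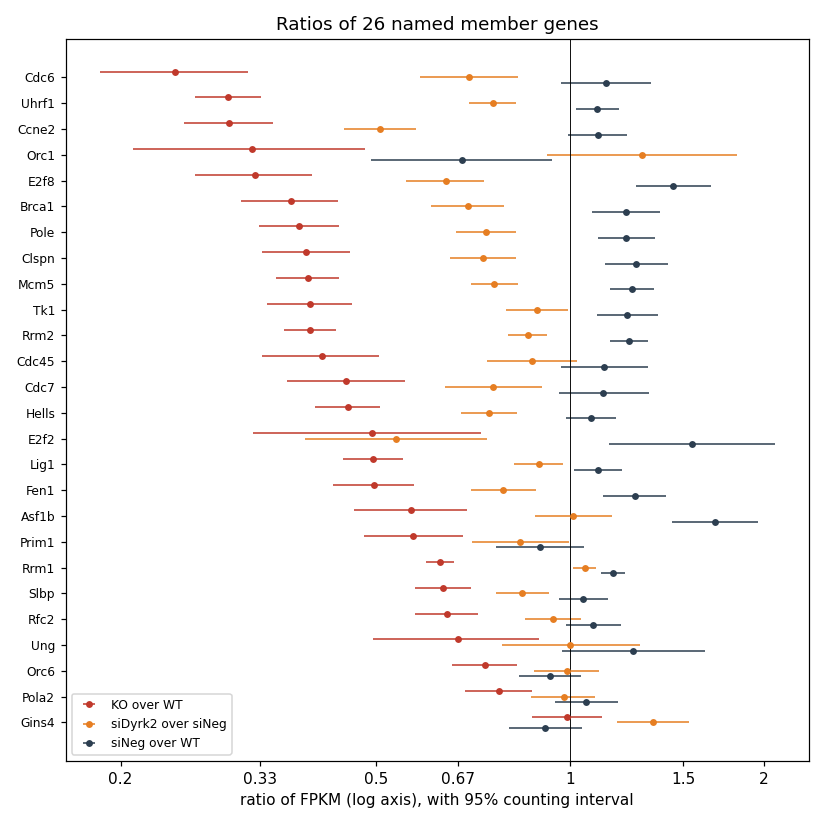
Ratio of FPKM (log axis) of 26 genes chosen by rule from the 8 roles, for KO over WT, siDyrk2 over siNeg and siNeg over WT, with bars for the 95% counting interval on estimated fragments. The KO over WT bars lie left of 1 for all but Gins4, and Ccne2 has the lowest siDyrk2 over siNeg ratio, 0.507.

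The KO and siDyrk2 comparisons use separate libraries and were set side by side. Of the 58 genes, 50 were lower in both, against 28.9% of all compared genes, and 33 had a counting interval below 1 in both, against 10.5%. The log2 ratio was lower in KO over WT than in siDyrk2 over siNeg for 57 of 58, against 57.8% of all compared genes. The median difference was -0.51, against -0.05 for all compared genes. The difference was greatest for Uhrf1 (-1.17), Rrm2 (-1.05), Orc1 (-0.89) and Tk1 (-0.88), and small for Chek1 (-0.13) and Gins1 (-0.21). It was not tested, since each ratio rests on 1 library per group. With siDyrk2 34 of the 58 were below both controls, against 32.3% of all compared genes, 5 were above both (Ccne1, Rrm1, Gins4, Rpa1 and Asf1b), against 39.6%, and 19 lay between them or at the level of either.

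**Figure D4:**
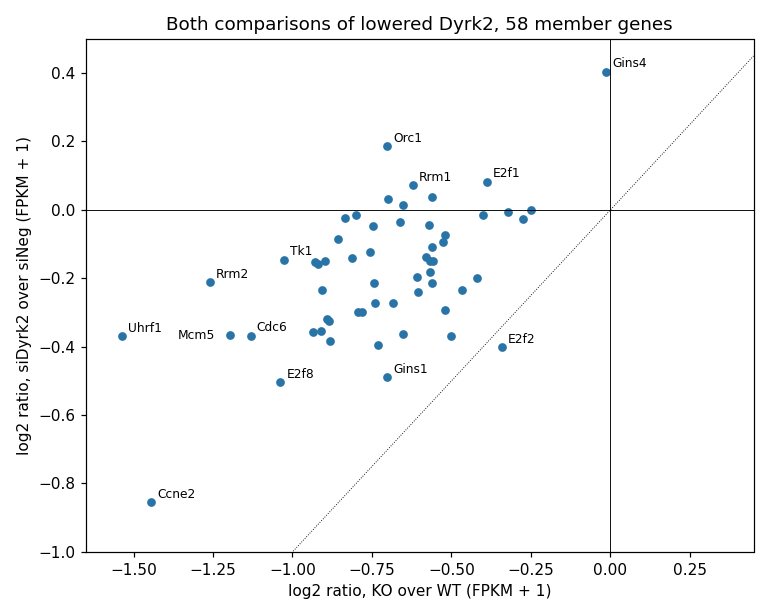
Log2 ratio on FPKM + 1 of siDyrk2 over siNeg against that of KO over WT, 1 point per gene, for 58 genes; the dotted line marks equal ratios. On this scale all points but E2f2 lie above the line, Ccne2 is lowest on the vertical axis at -0.85, and Gins4 stands apart at -0.01 and 0.40.

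Neighbouring gene lists had medians nearer to 0 in KO. Of 30 measured other replication factors 29 were lower in KO, against 55.6% of all compared genes, with a median log2 ratio of -0.35. Of these factors 0 were at least 2-fold lower, near the 1.21% of all compared genes. The clamp loader gene Chtf18 was at -0.74, the fork protection factors Donson at -0.70 and Timeless at -0.69. Of 14 further genes of nucleotide synthesis, 14 were lower in KO, against 55.6%. Their median was -0.37, and deoxycytidine kinase (Dck, -0.86) and the dUTPase gene Dut (-0.65) were among the lowest. In siDyrk2 over siNeg the median was -0.13 for the replication factors and -0.03 for nucleotide synthesis.

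The 24 measured upstream cell cycle genes had a median of -0.18 in KO, with 22 lower, against 55.6% of all compared genes. Of the 24, 0 were at least 2-fold lower, near the 1.21% of all compared genes. The lowest were Foxm1 (-0.92), Mybl2 (-0.83) and cyclin D1 (Ccnd1, -0.74). Cyclin D1 was at 78.57 FPKM in KO, 117.78 with siDyrk2, 141.77 with siNeg and 131.92 in WT. The 7 CDK inhibitors were mixed, with 3 lower and 4 higher in KO, against 55.6% and 43.7% of all compared genes. Cdkn1c, which encodes p57, was at 380.70 FPKM in KO, 175.35 with siDyrk2, 186.09 with siNeg and 207.89 in WT, so KO stood above the other 3. Cdkn2c, which encodes p18, was lower in KO, with a log2 ratio of -0.79, as was Cdkn2d, which encodes p19, at -0.47.

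Set beside the 28 measured G2/M genes, the replication genes had ratios nearer to 1 in KO and in siNeg. In KO the G2/M median was -1.07, with 19 of 28 at least 2-fold lower, against -0.70 and 7 of 58 for the replication genes. Of all compared genes 1.21% were at least 2-fold lower. In siNeg over WT all 28 G2/M genes were higher, against 48.3% of all compared genes. Their median was 0.46, against 0.13 for the replication genes. With siDyrk2 over siNeg the G2/M median was -0.13 and that of the replication genes -0.17. These contrasts between lists are descriptions and were not tested.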

How the data were processed

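Per the labels' protocols, DNase-treated RNA was selected for polyA and sequenced as stranded libraries. Software listed in the submitters' processing notes is HISAT2 2.0.1 and cutadapt 1.9.1, with GRCm38 as the build and no order or settings. How fragments were counted, and on which annotation, is not given in the sources used here. Per the file headers, the deposited values are FPKM with the authors' exonic length per gene. Of 55573 identifiers 55480 matched GENCODE M21, and for the 58 members the deposited length equalled the annotated exon length. Of the 58 members, 20 share exon bases with another gene. Rfc5 shares 10.7% with the antisense gene Wsb2, which was at 20.05 to 28.00 FPKM. Orc6 shares 6.93% with Vps35 (28.24 to 30.63 FPKM) and Cdc45 5.96% with Ufd1 (13.01 to 14.38 FPKM), both antisense. Each of these partners was above the member in every library.

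Depth was estimated as the smallest value that put genes of at most 200 bases on whole fragments within the rounding of the deposited 2 decimals. It placed 99.2% to 100% of 341 to 402 such genes. Intervals are exact 95% conditional binomial (Clopper-Pearson) and cover counting error only. Log2 ratios use FPKM + 1, which understates differences of low genes; folds are ratios of deposited FPKM. Compared genes have at least 1 FPKM in 1 or more libraries. No count model was run, and a fit treating KO and siDyrk2 as replicates of lowered Dyrk2 was not run.

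The members and all lists were chosen with earlier results of these data known. Genes given with all 4 values were the 2 lowest and the highest in KO over WT of each role, the extremes of each comparison and Dyrk2. Ccne1, Pcna, the overlapping gene Ints8, Pcna-ps2, Ccnd1 and Cdkn1c were added after their values were seen, as were the other members given by fold only. The marker Tubb3 and the overlapping gene Tmem258 were also given with all 4 values outside that rule. Alternatives were other pseudocounts, filters, scalings, folds and controls. The calculations were tested on simulated data, with Python 3.11.15 and SciPy 1.17.1. Some results are not reported here.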

Additional observations from a re-analysis of the deposited data

Results flagged for a closer look

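Rrm1 had a KO over WT ratio below 1 and a siDyrk2 over siNeg ratio above 1, each beyond its counting interval on the deposited FPKM. Its log2 ratio was -0.62 in KO over WT and 0.07 in siDyrk2 over siNeg, a difference of -0.69 that was not tested, since each group is 1 library. The siDyrk2 over siNeg interval included 1 after rescaling, from 0.991 to 1.08 with trimmed-mean scaling and from 0.998 to 1.09 with median-of-ratios scaling.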

How the results depend on the processing

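No paired analysis was possible because each group has 1 library. Leaving out a replicate was not possible for the same reason. For KO over WT the count of members at least 2-fold lower was 7 as reported, 24 with a pseudocount of 0.1 FPKM, 2 with a pseudocount of 5 FPKM, 4 among the 28 members averaging at least 5 FPKM, 21 with siNeg as the control, 37 at a fold of 1.5 and 4 among the 38 members sharing no exon with another gene. All compared genes gave 3.15% with a pseudocount of 0.1 FPKM, 0.109% with 5 FPKM, 1.98% with siNeg as the control and 4.04% at a fold of 1.5. The median moved to -0.36 with a pseudocount of 5 FPKM. Members lower in any amount were 28 of 28 and 38 of 38 in these subsets for KO over WT, 22 of 28 and 32 of 38 for siDyrk2 over siNeg, and 5 of 28 and 4 of 38 for siNeg over WT. At a fold of 1.5, 1 member was lower with siDyrk2, against 2.73% of all compared genes, and 1 higher with siNeg over WT, against 1.41%. The E2F-type share was 21.1% in the 250 bases before the start. The subset without shared exons was chosen after seeing the data. For the subsets of 28 and 38 members the share of all compared genes under the same restriction was not computed. Their counts therefore stand without a background. The other 83 recomputed summaries stayed within set limits, and no median changed sign. They include siDyrk2 with WT as the control, where the median went from -0.17 to -0.07. There the members lower went from 50 of 58, against 45% of all compared genes, to 36 of 58, against 47.3%. For counts the limit was 1.5 times. For medians it was the mean distance, on the log2 scale, from a ratio to the ends of its counting interval, as a median over members. Summaries without the filter could not change, because all 58 members pass it. Of the single-gene ratios recomputed, 420 moved by less than that distance for the gene itself and 58 by more. The 420 include recomputations under other filters, which only choose members and cannot move the ratio of a single gene. Low members limit precision: 28 of 58 were under 5 FPKM in WT.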
